A study of Mus musculus with 6 samples.

Results

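The lysosome breaks down proteins, lipids, glycogen and glycans delivered by endocytosis and autophagy, and 32 genes that run this system were followed in mouse liver lacking Lmln. They were taken by symbol from the 55367 gene names of the count table: the cathepsin proteases, other lysosomal hydrolases and their cofactors, lysosomal membrane proteins, the transcription factors Tfeb and Tfe3, and the machinery that builds autophagosomes. All 32 genes were in the table and all 32 passed the filter on low counts, among 18703 tested genes. RNA of whole liver was compared between 3 libraries from Lmln-/- mice (Lmln-KO) and 3 from wild-type mice (WT), all of strain C57BL/6J. The labelled age is 46 weeks for Lmln-KO replicates 1 and 2 and for all WT libraries, and 39 weeks for Lmln-KO replicate 3. Lmln encodes invadolysin, a metalloprotease found on lipid droplets. The labels give neither the sex of the mice nor how the Lmln allele was made, and whether each library came from a separate animal is not spelled out.

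In liver, autophagy delivers cytoplasm, glycogen and lipid droplets to lysosomes, above all during fasting. ULK1 starts the formation of the autophagosome, a lipid kinase complex with Beclin 1 marks its membrane, and a ubiquitin-like system that includes ATG7, ATG5 and ATG16L1 attaches LC3 and GABARAP proteins to it. The vesicle then fuses with the lysosome, where cathepsins and other acid hydrolases degrade its content. TFEB and TFE3 are transcription factors that move to the nucleus when nutrients are scarce and bind a motif with the core CACGTG near many genes of lysosomes and autophagy.

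Reads of Lmln itself numbered 4, 12 and 2 in Lmln-KO replicates 1, 2 and 3, against 79, 80 and 39 in WT replicates 1, 2 and 3. Total counts ran from 20957895 to 22494696 in Lmln-KO libraries and from 17388360 to 18272045 in WT libraries. Alb, the albumin gene that marks hepatocytes, was at 45715 to 60834 CPM (read counts scaled to the size of the library) in Lmln-KO and 62501 to 74329 CPM in WT. The libraries also differed in a way the labels do not mention: Lmln-KO replicate 3 and WT replicates 2 and 3 carried Xist, the RNA of the inactive X chromosome, at 1878 to 1947 CPM, and Lmln-KO replicates 1 and 2 and WT replicate 1 carried Y-linked transcripts instead. Genotype and this difference overlap in part, so fold changes are also given from a fit with a term for it, called the sex-marker term. Among Xist-carrying libraries the only Lmln-KO library is replicate 3, the 39-week one, so genotype and age cannot be told apart there. Among Y-carrying libraries WT replicate 1 is the only WT library.

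Differences between genotypes were small for nearly all of these genes. No member passed edgeR's quasi-likelihood test at an adjusted p of 0.05, and neither did any other gene (0% of 18703 tested genes). Lmln itself, despite its far lower counts in Lmln-KO, was thus not called either, so a gene without a call may still differ. Only Ulk1 and Ctss had an unadjusted p under 0.05 in edgeR, both lower in Lmln-KO. That is 6.25% of members, beside 871 of all tested genes (4.66%) with such a p and 3.14% with such a p and a lower level in Lmln-KO. DESeq2 and limma-voom each gave 2 members with an unadjusted p under 0.05, beside 4.09% and 4.54% of their tested genes. DESeq2 called 0 members at an adjusted p of 0.05, beside 0.128% of its tested genes, and 0 with the sex-marker term, beside 0.166%. The median log2 fold change of the members, Lmln-KO over WT, was -0.06, with 20 members lower and 12 higher (37.5%), and that of all tested genes was -0.0038, with 49.4% higher. With the sex-marker term the members' median was -0.02, again with 2 members at an unadjusted p under 0.05 in edgeR, beside 4.34% of all tested genes. At an adjusted p of 0.05 that fit called 0 members and 0.00535% of all tested genes, and in DESeq2 with the term 1 member had an unadjusted p under 0.05, beside 2.96%. The estimates were fairly precise: the 95% interval of the fold change lay within a 1.5-fold change either way for 23 of 32 members and within a 2-fold change either way for 30. The exceptions at 2-fold were Ctsk and Ctsc.

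**Figure D1:**
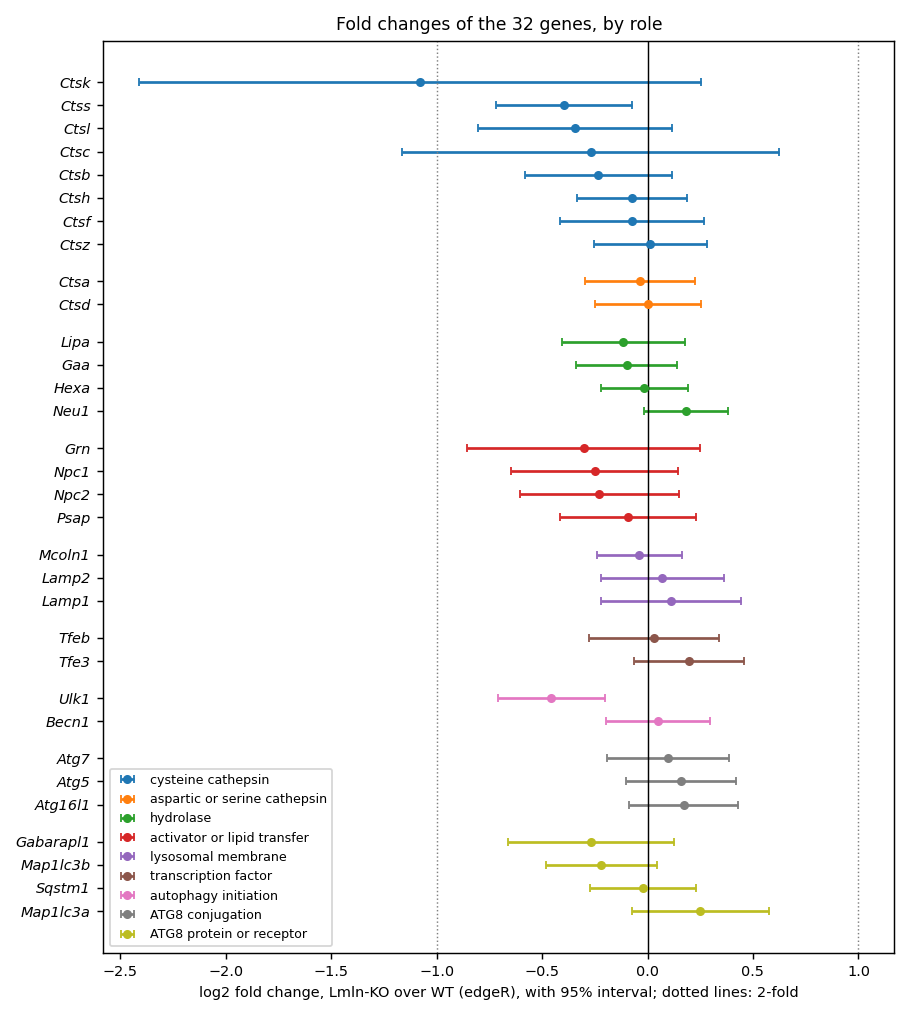
Log2 fold change of each of the 32 genes, Lmln-KO over WT, with its 95% interval from edgeR (n = 3 libraries each), grouped by role in colour; dotted lines mark a 2-fold change. Only the intervals of Ulk1 and Ctss leave out 0, both on the lower side, and only those of Ctsk and Ctsc reach past 2-fold.

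The groups did not overlap for 3 members, Ulk1, Ctss and Neu1 (9.38% of members), beside 10.3% of all tested genes. Ulk1 and Ctss were lower in Lmln-KO, beside 5.73% of all tested genes that were lower without overlap, and Neu1 was higher, beside 4.61%. With 1 library left out the count of members was 13 without Lmln-KO replicate 3 (25.8% of all tested genes), 10 without WT replicate 1 (27.6%) and 10 without WT replicate 2 (20.3%). It was 5 without Lmln-KO replicate 2 (17.2%), 4 without WT replicate 3 (16.6%) and 3 without Lmln-KO replicate 1 (17.3%). The libraries with Xist and those with Y-linked transcripts did not overlap for 14 members (43.8%), beside 26.3% of all tested genes, with 9 members higher and 5 lower where Xist was present. The sex-chromosome difference thus parted more of these genes than genotype did, as it also did over all tested genes.

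**Figure D2:**
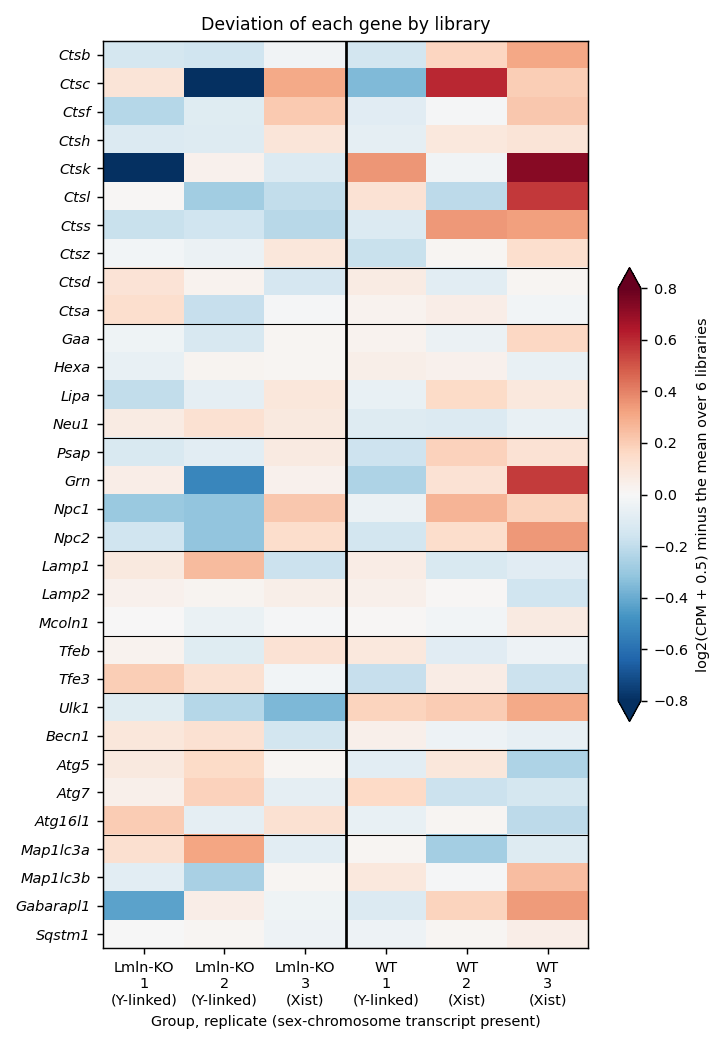
Deviation of each gene from its mean over the 6 libraries, as log2(CPM + 0.5), with Lmln-KO libraries left of WT libraries and the sex-chromosome transcript present named under each; colours end at 0.8 either way. Ulk1 and Ctss are below their mean in all 3 Lmln-KO libraries, while Npc1, Npc2, Lipa and Psap are above it in the 3 libraries with Xist.

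Levels of different genes were compared per length, as CPM per kilobase of exon. Psap was the highest member at 174 ± 17.3 CPM per kb (SD over 6 libraries), followed by Lamp1 at 149 ± 16.8, Gabarapl1 at 118 ± 20.9 and Sqstm1 at 109.7 ± 2.68 CPM per kb. The spreads of Psap and Lamp1 overlap, as do those of Gabarapl1 and Sqstm1. Tfe3 at 3.09 ± 0.334, Tfeb at 1.75 ± 0.114 and Ctsk at 0.564 ± 0.324 CPM per kb were the lowest. Of the 32 members, 30 lay above the median tested gene (2.69 CPM per kb) and 16 were in the top 10% of tested genes. The genes of this degradative system were thus well expressed in these livers, and the factors known to control them were among the scarcest of the set per length. That order depends on the counted exon length. By mean CPM over the 6 libraries, Tfe3 (28.6) was above Ctss (21.5), Ctsf (21.0) and Map1lc3a (19.4). Tfeb (9.90) was above Ctsk (0.853) only.

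**Figure D3:**
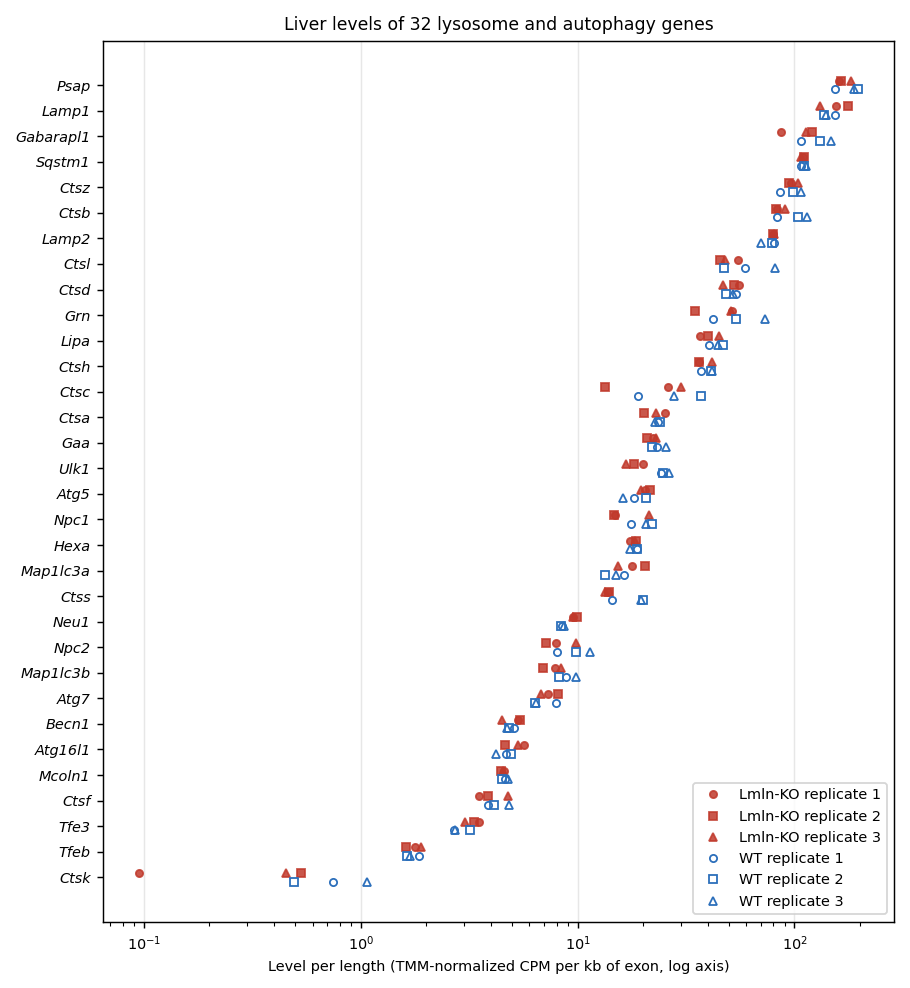
Level per length of each gene in every library, in TMM-normalized CPM per kb of exon on a log axis, with Lmln-KO as filled red and WT as open blue symbols. Levels span from Ctsk at 0.564 to Psap at 174 CPM per kb, and the libraries of both genotypes lie close together for most genes.

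Promoters of 4 members picked for their motifs and of the 3 whose groups did not overlap are shown here, because TFEB and TFE3 act through the letters CACGTG. RefSeq start sites gave promoter windows for 26 of the 32 members (250 bases before to 50 after the start, build GRCm38.p6), and each motif searched reads the same on both strands. Some of these start sites lie inside the counted gene. The Atg7 motif lies past base 114670937 of chromosome 6, and the counted gene begins at 114643097. The Ctsa stretch printed below ends at 164833772, and the counted gene begins at 164832873. CACGTG was present for 9 of the 26, Atg5, Atg7, Ctsa, Ctsd, Ctsf, Ctsl, Gaa, Lamp1 and Mcoln1, beside 8.09% of all genes with such windows. The longer TCACGTGA, which contains CACGTG, was present for Ctsa, Ctsd and Mcoln1, beside 1.12% of all genes. TCACGTGA with a G before and a C after it was present for 0 members and 0.37% of all genes. Lamp1 had 4 copies of CACGTG in the last 120 bases before its start, a number reached by 6 of 32851 windows over all genes. The 120 bases before the start (for Ctsa, of the one of its 2 windows that holds the motif) are printed for these 4 genes and for the 3 whose groups did not overlap, with CACGTG or, where complete, TCACGTGA in capitals:
Lamp1 (chr8:13159041-13159160, plus strand): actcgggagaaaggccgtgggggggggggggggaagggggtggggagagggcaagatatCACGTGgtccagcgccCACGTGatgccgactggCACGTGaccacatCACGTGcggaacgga
Mcoln1 (chr8:3500399-3500518, plus strand): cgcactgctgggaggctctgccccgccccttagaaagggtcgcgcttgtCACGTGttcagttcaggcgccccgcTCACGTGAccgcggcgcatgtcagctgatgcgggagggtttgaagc
Ctsd (chr7:142387828-142387947, minus strand): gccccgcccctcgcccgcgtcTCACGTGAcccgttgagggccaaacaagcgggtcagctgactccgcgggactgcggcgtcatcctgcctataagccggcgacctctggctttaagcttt
Ctsa (chr2:164833653-164833772, plus strand): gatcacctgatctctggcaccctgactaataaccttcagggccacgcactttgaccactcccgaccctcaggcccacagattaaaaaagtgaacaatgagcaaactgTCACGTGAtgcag
Ulk1 (chr5:110810082-110810201, minus strand): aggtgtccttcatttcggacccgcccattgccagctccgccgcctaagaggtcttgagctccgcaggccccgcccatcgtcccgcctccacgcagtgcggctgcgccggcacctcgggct
Ctss (chr3:95526666-95526785, plus strand): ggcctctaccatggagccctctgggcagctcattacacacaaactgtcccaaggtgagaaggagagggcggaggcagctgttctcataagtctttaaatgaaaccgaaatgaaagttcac
Neu1 (chr17:34931133-34931252, plus strand): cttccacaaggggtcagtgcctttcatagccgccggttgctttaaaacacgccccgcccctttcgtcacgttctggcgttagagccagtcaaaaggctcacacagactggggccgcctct
The first 4 sequences were chosen for their motifs, so that they hold copies, between 1 and 4, is no result. The stretches of Ulk1, Ctss and Neu1 hold no CACGTG, like most promoters. Over all genes 3.66% of windows had CACGTG in these 120 bases. The median log2 fold change was -0.04 for the 9 members with CACGTG (4 higher, 5 lower in Lmln-KO) and -0.12 for the 17 members without it (5 higher, 12 lower). A match describes the sequence only and is not a binding site measured here.

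The kinase that starts autophagy had the smallest p among the members. Ulk1 (chromosome 5, 110784488 to 110810097, GRCm38) measured 129.85, 119 and 108 CPM in Lmln-KO replicates 1, 2 and 3, against 157, 160.2 and 171 CPM in WT replicates 1, 2 and 3. Every Lmln-KO library lay below every WT library, and the lowest was the one from the 39-week-old animal. The means were 119 ± 10.8 CPM in Lmln-KO livers and 163 ± 7.38 CPM in WT livers (SD, n = 3 each), a log2 fold change of -0.46 (SE 0.111), with a 95% interval of -0.71 to -0.20. In edgeR its unadjusted p of 0.00334 ranked 41st of 18703 genes, and its adjusted p was 0.933. Over the alternatives, leaving out any 1 library included, its log2 fold change lay between -0.52 and -0.38, and was -0.48 with the sex-marker term. Compared among Y-carrying libraries alone it was -0.34, and among Xist-carrying libraries alone -0.61. DESeq2 gave an adjusted p of 0.231, and 0.196 with the term, and over all alternatives the adjusted p ran from 0.196 to 0.99994. Becn1, the gene of Beclin 1, had a log2 fold change of 0.05 (SE 0.107). Exons of Cntd1 on the opposite strand cover 43.9% of its counted length, and counting took no account of strand.

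**Figure D4:**
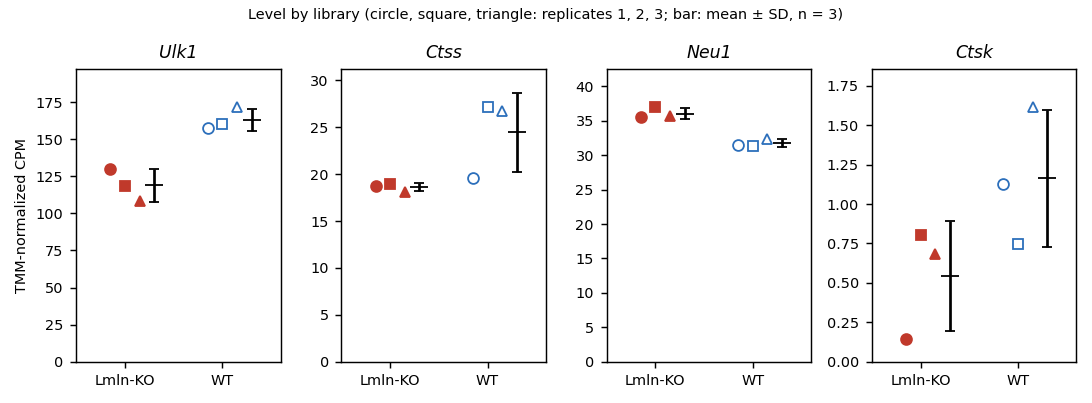
TMM-normalized CPM of Ulk1, Ctss, Neu1 and Ctsk in each library (circle, square and triangle for replicates 1, 2 and 3), with the mean ± SD (n = 3) beside each group and each axis starting at 0. Ulk1 and Ctss are lower and Neu1 is higher in all 3 Lmln-KO libraries than in any WT library, and the groups overlap for Ctsk.

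The 3 members from the system that attaches LC3 to the autophagosome membrane averaged higher in Lmln-KO, with overlapping groups. Atg5 (chromosome 10, 44268358 to 44364291), part of the ligase for LC3, measured 48.1, 50.7 and 45.9 CPM in Lmln-KO replicates 1, 2 and 3, against 42.8, 48.5 and 38.2 CPM in WT replicates 1, 2 and 3. WT replicate 2 reached into the Lmln-KO range. The Atg5 log2 fold change was 0.16 (SE 0.113). The gene Atg16l1, which brings that ligase to the membrane, had one of 0.17 (SE 0.113), and Atg7, the activating enzyme of the system, one of 0.10 (SE 0.125). None of them passed in edgeR (adjusted p 0.933 to 0.936). With the sex-marker term the log2 fold changes were 0.14 for Atg5, 0.17 for Atg16l1 and 0.02 for Atg7.

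The LC3 and GABARAP genes of the set differed in sign, and none passed the test. Gabarapl1 (chromosome 6, 129533160 to 129542346), the most abundant of them per length, measured 174, 243 and 228 CPM in Lmln-KO replicates 1, 2 and 3, against 217, 265 and 296 CPM in WT replicates 1, 2 and 3. Lmln-KO replicate 1 was the lowest library and the groups overlapped. Exons of 1700101I11Rik on the opposite strand cover 28.3% of its counted length. The Gabarapl1 log2 fold change was -0.27 (SE 0.171), or -0.13 with Lmln-KO replicate 1 left out and -0.16 with WT replicate 3 left out. That of Map1lc3b, an LC3 gene, was -0.22 (SE 0.115). Map1lc3a, the other LC3 gene, pointed the other way, with 0.25 (SE 0.141). Sqstm1, the p62 receptor that links ubiquitinated cargo to LC3, averaged 366 ± 7.01 CPM in Lmln-KO livers and 371 ± 11.5 CPM in WT livers (SD, n = 3 each). The Sqstm1 log2 fold change was -0.02, with a 95% interval of -0.27 to 0.23.

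The groups overlapped for both transcription factors of the set. Tfe3 (chromosome X, 7762560 to 7775202) measured 32.7, 30.9 and 28.0 CPM in Lmln-KO replicates 1, 2 and 3, against 25.002, 29.7 and 25.2 CPM in WT replicates 1, 2 and 3. WT replicate 2 lay inside the Lmln-KO range, and the other WT libraries lay below it. The Tfe3 log2 fold change was 0.20 (SE 0.114). Tfeb averaged 10.01 ± 0.769 CPM in Lmln-KO livers and 9.79 ± 0.647 CPM in WT livers (SD, n = 3 each), with a log2 fold change of 0.03 (SE 0.134). Nuclear entry and phosphorylation, which set the activity of these factors, are not seen in RNA.

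Among the cysteine cathepsins, 7 of 8 were lower in Lmln-KO, none of them with an adjusted p under 0.05 in edgeR. Ctsb, Ctsc, Ctsf, Ctsh and Ctsz were higher in every library with Xist than in any library with Y-linked transcripts. With the sex-marker term their log2 fold changes were -0.14, -0.03, 0.02, -0.01 and 0.08, in that order. Ctss, at -0.32, Ctsl, at -0.34, and Ctsk stayed lower in the fit with the term. Ctss (chromosome 3, 95526786 to 95556403) encodes cathepsin S, which processes the invariant chain for MHC class II in antigen-presenting cells. It measured 18.7, 18.9 and 18.1 CPM in Lmln-KO replicates 1, 2 and 3, against 19.6, 27.1 and 26.7 CPM in WT replicates 1, 2 and 3. WT replicate 1 was close to the Lmln-KO libraries, and WT replicates 2 and 3 stood well above them. The log2 fold change was -0.40 (SE 0.141), with an unadjusted p of 0.0224 and an adjusted p of 0.933 in edgeR. Compared among Y-carrying libraries alone the log2 difference was -0.06, and among Xist-carrying libraries alone -0.56. The unadjusted edgeR p was 0.0572 with Lmln-KO replicate 1 left out, 0.0591 with Lmln-KO replicate 3, 0.0813 with WT replicate 2 and 0.0703 with WT replicate 3. It was 0.0485 with Lmln-KO replicate 2 left out and 0.00175 with WT replicate 1 left out, where the log2 fold change was -0.53.

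Markers of antigen-presenting cells also averaged lower in Lmln-KO. By list medians the difference lay mainly among the Xist-carrying libraries, where the only Lmln-KO library was replicate 3, aged 39 weeks. The summed level of 7 dendritic cell and MHC class II genes was 75.8 to 96.6 CPM in Lmln-KO livers, against 88.9, 155 and 226 CPM in WT replicates 1, 2 and 3, and all 7 genes were lower. Their median log2 fold change was -0.84, and 5 were lower with an unadjusted p under 0.05 in edgeR, beside 3.14% of all tested genes. With the sex-marker term the median was -0.63 and 1 gene had such a p. The median difference was 0.02 among Y-carrying libraries and -1.20 among Xist-carrying ones. For 14 macrophage markers the sum was 399.9 to 522 CPM in Lmln-KO livers, against 485 to 562 CPM in WT livers, with 13 lower and a median of -0.15, which the term left at -0.15. Here the median difference was 0.0011 among Y-carrying libraries and -0.29 among Xist-carrying ones. Of the 14, 2 were lower with an unadjusted p under 0.05 in edgeR, beside 3.14% of all tested genes. The same 2 were lower without overlap, so also below the Y-carrying WT library, beside 5.73% of all tested genes. With the term 3 were lower with such a p, beside 4.34% of all tested genes in either direction. No marker of either list was at 0 in all libraries. The sum of 8 B cell markers was 20.8 to 38.6 CPM in Lmln-KO livers, against 38.8, 233 and 402 CPM in WT replicates 1, 2 and 3. For the 6 of them tested the median difference was -0.31 among Y-carrying libraries and -2.36 among Xist-carrying ones. The part of these cells in the values of Ctss and the other cathepsins was not tested, and in whole tissue fewer cells of a type and less RNA per cell cannot be told apart.

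Ctsk, the collagen-degrading cathepsin K known from osteoclasts, had the largest fold change of the set on the fewest counts. Its reads numbered 3, 17 and 16 in Lmln-KO replicates 1, 2 and 3, against 19, 14 and 28 in WT replicates 1, 2 and 3. The groups overlapped, and Lmln-KO replicate 1 alone was far below the rest. Its log2 fold change of -1.08 (SE 0.578) was -0.64 without Lmln-KO replicate 1.

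The groups overlapped for all other cysteine cathepsins. Ctsz (chromosome 2, 174427493 to 174439039), the carboxypeptidase cathepsin Z and the highest cathepsin per length, measured 138, 136 and 149 CPM in Lmln-KO replicates 1, 2 and 3, against 124, 142 and 154 CPM in WT replicates 1, 2 and 3. Both the lowest and the highest value came from WT. Ctsb, the gene of cathepsin B, averaged 517 ± 26.4 CPM in Lmln-KO livers and 607 ± 95.9 CPM in WT livers (SD, n = 3 each), a log2 fold change of -0.23 (SE 0.151). The endopeptidase gene Ctsl had one of -0.34 (SE 0.2), which was -0.11 without WT replicate 3, at 526 CPM the highest library. Exons of Gm47123 on the opposite strand cover 26.8% of its counted length. Ctsc, whose product activates serine proteases of leukocytes, ranged from 78.1 to 175 CPM in Lmln-KO and from 110.5 to 215 CPM in WT. The Ctsc log2 fold change was -0.27 (SE 0.366), and 0.0065 without Lmln-KO replicate 2, the lowest library. Ctsh and Ctsf, 2 further cysteine proteases, each had one of -0.07.

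The cathepsins of other classes had nearly equal means. Ctsd (chromosome 7, 142375911 to 142388038), the major aspartic protease of lysosomes, measured 130.1, 123 and 109.7 CPM in Lmln-KO replicates 1, 2 and 3, against 126, 114 and 122 CPM in WT replicates 1, 2 and 3. The Ctsd log2 fold change was 0.0039, with a 95% interval of -0.25 to 0.26. The predicted gene Gm49369 shares 34.4% of its counted length on the same strand, so reads there could not be assigned to one of them. Ctsa, a serine carboxypeptidase that also protects the sialidase NEU1, had a log2 fold change of -0.04, with an interval of -0.29 to 0.22.

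Neu1 was the only member higher in every Lmln-KO library than in any WT library. Neu1 (chromosome 17, 34931253 to 34935953), the lysosomal sialidase, measured 35.5, 36.9 and 35.7 CPM in Lmln-KO replicates 1, 2 and 3, against 31.5, 31.4 and 32.4 CPM in WT replicates 1, 2 and 3. Both groups were tight, at 36.1 ± 0.772 CPM in Lmln-KO livers and 31.8 ± 0.569 CPM in WT livers (SD, n = 3 each). The log2 fold change of 0.18 (SE 0.0867) had an unadjusted p of 0.0679 and an adjusted p of 0.933 in edgeR. Among Y-carrying libraries alone it was 0.20, and among Xist-carrying libraries alone 0.16.

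The groups overlapped for the other hydrolases. Lipa (chromosome 19, 34492318 to 34527474), the acid lipase that frees fatty acids and cholesterol from droplets taken up by lysosomes, measured 248, 269.9 and 303 CPM in Lmln-KO replicates 1, 2 and 3, against 272, 316 and 301 CPM in WT replicates 1, 2 and 3. The ranges overlapped, and the lowest WT library was the one with Y-linked transcripts. The Lipa log2 fold change was -0.12 (SE 0.126). Gaa, the acid glucosidase that degrades glycogen, had one of -0.10, with a 95% interval of -0.34 to 0.14. Hexa, the alpha subunit of beta-hexosaminidase, had one of -0.02, with an interval of -0.22 to 0.19.

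Cofactors and cholesterol exporters were lower in Lmln-KO on average, 4 of 4, without passing the test (edgeR adjusted p 0.933 to 0.944). Psap (chromosome 10, 60277627 to 60302597), the precursor of the saposins that present lipids to hydrolases, measured 438, 449.7 and 501 CPM in Lmln-KO replicates 1, 2 and 3, against 424, 541 and 517 CPM in WT replicates 1, 2 and 3. WT replicate 1 had the lowest value of all, and the log2 fold change was -0.09 (SE 0.141), or -0.0061 with the sex-marker term. Npc1 and Npc2, which pass cholesterol out of the lysosome, differed by -0.25 (SE 0.172) and -0.23 (SE 0.163) in log2 fold change. In the fit with the term the values were -0.13 for Npc1 and -0.10 for Npc2, and both genes were higher in every library with Xist than in any library with Y-linked transcripts. Grn, the gene of progranulin, was at -0.30 on the log2 scale (SE 0.237), which became -0.07 when WT replicate 3, at 255 CPM its highest library, was left out. With the term the Grn value was -0.14. Among Y-carrying libraries alone the log2 differences were 0.07 for Psap and 0.01 for Grn, and among Xist-carrying libraries alone -0.08 and -0.31. Those of Npc1 and Npc2 were negative in both sets.

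The groups overlapped for the 3 genes of lysosomal membrane proteins. Lamp1 (chromosome 8, 13159161 to 13175338), a heavily glycosylated coat protein, measured 418, 473 and 352 CPM in Lmln-KO replicates 1, 2 and 3, against 413, 364 and 372 CPM in WT replicates 1, 2 and 3. The highest and the lowest library were both Lmln-KO. The Lamp1 log2 fold change was 0.11 (SE 0.144), and it ranged from 0.0060 with Lmln-KO replicate 2 left out to 0.22 with Lmln-KO replicate 3 left out. Lamp2, its X-linked relative needed for autophagosome fusion and chaperone-mediated autophagy, averaged 765 ± 6.62 CPM in Lmln-KO livers and 728 ± 53.5 CPM in WT livers (SD, n = 3 each), a log2 fold change of 0.07. Mcoln1, the calcium channel TRPML1, had one of -0.04, with a 95% interval of -0.24 to 0.16.

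Related genes outside the set were also followed. None of the 110 genes in 5 further lists on the lysosome and autophagy passed at an adjusted p of 0.05 in edgeR, as for all tested genes. Of the 110, 1 had an unadjusted p under 0.05, beside 4.66% of all tested genes. Of 16 subunits of the V-ATPase, the pump that acidifies the lysosome, 10 were higher and 6 lower in Lmln-KO, with a median log2 fold change of 0.03. The smallest p there belonged to Atp6ap2 with 0.24 (SE 0.123), Atp6v0a2 with 0.24 (SE 0.128) and Atp6v0d1 with 0.19 (SE 0.126). The 28 other lysosomal hydrolases had a median of 0.01 (16 higher, 12 lower), and among their genes with the smallest p were Smpd1, the acid sphingomyelinase, with 0.23 and Glb1, the lysosomal beta-galactosidase, with -0.19. The 13 genes for sorting of lysosomal enzymes had a median of 0.02 (8 higher, 5 lower). Here Igf2r, a mannose 6-phosphate receptor, had a log2 fold change of 0.21, the membrane receptor gene Scarb2 one of 0.23 and Gga3 one of -0.19.

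The 28 other autophagy genes had a median of -0.0044 (13 higher, 15 lower). Their smallest p belonged to Ulk2, the relative of Ulk1, with 0.29 (SE 0.176), opposite in sign to Ulk1, to Atg2a with -0.19 and to Uvrag with 0.16. Among 25 regulators of nutrient sensing the median was 0.02 (13 higher, 12 lower). Foxo1, a transcription factor restrained by insulin, measured 59.7, 53.0 and 62.0 CPM in Lmln-KO replicates 1, 2 and 3, against 63.2, 75.5 and 92.1 CPM in WT replicates 1, 2 and 3. The groups did not overlap, but WT replicate 1 was close to Lmln-KO replicate 3. Of the 25 genes, 3 were lower and 2 higher without overlap, beside 5.73% and 4.61% of all tested genes. The Foxo1 log2 fold change was -0.40 (SE 0.148), with an unadjusted p of 0.0264 and an adjusted p of 0.933 in edgeR. For Flcn, the folliculin gene, the value was -0.32 (SE 0.139), and for Prkaa2, a catalytic subunit of AMP-activated kinase, it was 0.37 (SE 0.164).

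**Figure D5:**
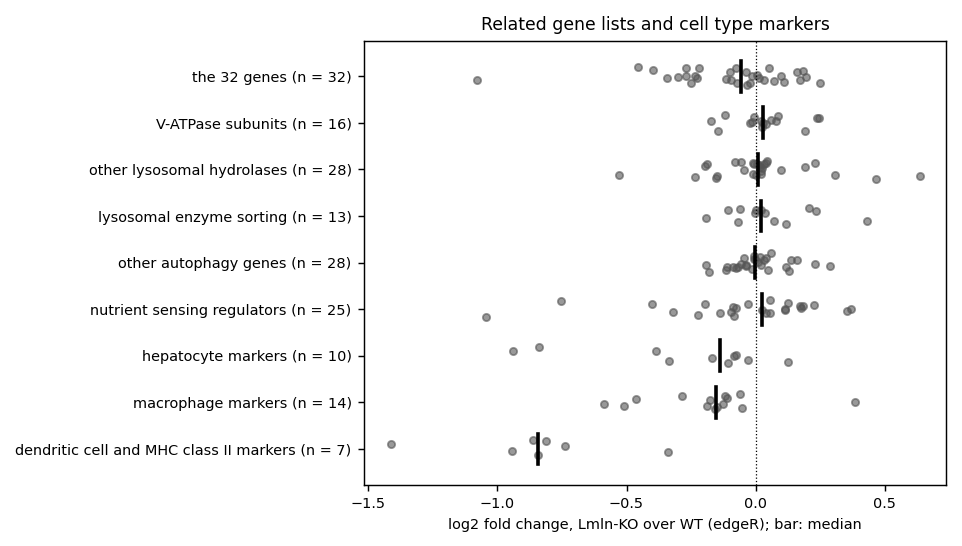
Log2 fold changes, Lmln-KO over WT, of the 32 genes, of 5 lists on the lysosome, autophagy and nutrient sensing, and of 3 marker lists (points are genes, bars are medians). The medians of the lysosome and autophagy lists lie between -0.06 and 0.03, and that of the dendritic cell and MHC class II markers is -0.84.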

How the data were processed

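Whole-liver total RNA was depleted of ribosomal RNA and sequenced as pairs of 36-base reads from a directional kit, per the labels' protocols. The authors deposited raw read counts per gene name from featureCounts 2.0.1 over exons of Ensembl release 102 (GRCm38), per the file headers, with no option for pairs or strand. The submitters' processing notes name Subread 2.0.2 and edgeR 3.36.0. As for alignment, the tool was not given in the sources used here.

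Columns were matched to samples by title. No pair of libraries agreed within sampling noise: chi-square divided by its degrees of freedom was 10.9 or more for each pair. With edgeR 4.0.16 in R 4.3.3 genes were filtered (filterByExpr, minimum count 10), TMM-normalized and tested with a robust quasi-likelihood fit on genotype, adjusted by Benjamini-Hochberg over 18703 genes. Intervals are unadjusted, from the fit's SE and degrees of freedom. P-values measure only the spread between these libraries, which may be technical. CPM per kb divides TMM-normalized CPM by the deposited exon length. Differences within a sex-marker set use log2(CPM + 0.5). The steps were tested on simulated data.

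The members and all lists were chosen with earlier results of these data known. Full values are given for members with an unadjusted p under 0.05, no overlap between the groups or the highest level per length in their role. From each related list up to 3 genes with the smallest p are named. One gene that this rule names is not reported here. Ctsk, Ctsb and further members with partial values were picked after their values were seen. Alternatives were RLE scaling, 2 other filters, DESeq2 1.42.0, limma-voom (limma 3.58.1), the replicate number as a block, the sex-marker term and leaving out each library. The sex-marker term compares Xist with 4 summed Y-linked genes.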

Additional observations from a re-analysis of the deposited data

How the results depend on the processing

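No member was called at an adjusted p of 0.05 in any of the 14 alternatives, and the members' median log2 fold change stayed between -0.09 and -0.01. Over all genes edgeR called 0; 3 were called without a filter on low counts, 24 by DESeq2, 31 by DESeq2 with the sex-marker term, 1 with that term in edgeR, and 0 to 3 when a library was left out (3 without WT replicate 1). Members with an unadjusted p under 0.05 numbered 1 with DESeq2 and the term, and 1 to 3 when a library was left out (1 without Lmln-KO replicate 1 or WT replicate 3). Members without overlap between the groups numbered 3 to 13 when a library was left out. Small fold changes turned sign: Hexa without a filter (0.0018), Ctsz and Ctsd at a minimum count of 50 (-0.0013 and -0.0090), Ctsf, Ctsd and Becn1 with the term in edgeR (0.017, -0.050 and -0.013), and Ctsf, Ctsd, Psap and Becn1 with the term in DESeq2 (0.027, -0.041, 0.0027 and -0.0039). Without a single library Ctsf ran from -0.21 to 0.026, Ctsd from -0.045 to 0.077, Hexa from -0.047 to 0.017, Ctsc from -0.49 to 0.0065, Ctsa from -0.11 to 0.044, Becn1 from -5.9e-05 to 0.14, Ctsz from -0.065 to 0.086, Tfeb from -0.014 to 0.090 and Sqstm1 from -0.042 to 0.0018. The cause was not tested. The minimum count of 50 left out Ctsk. Overlap was not recomputed where an alternative changes only the model.

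Deviations from the group means correlated by 0.503, -0.343 and 0.425 for replicate numbers 1, 2 and 3. Of 6 libraries, 2 correlated best with their own number. Numbers 1 and 3 carry the same sex-chromosome transcripts in both groups and number 2 does not, so these values cannot settle whether the numbers pair animals. With the replicate number as a block edgeR called 1 gene over all and 0 members, and 2 members again had an unadjusted p under 0.05. Each group holds 3 libraries, and genotype is partly confounded with the sex-chromosome transcripts and with the age of 1 animal. The printed 95% intervals give the precision that 3 libraries in each group allow.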

Other observations

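Other cell type markers in the same libraries are given as values. Hepatocyte markers summed to 67645 to 77845 CPM in Lmln-KO livers, against 79770 to 102200 CPM in WT livers. Of the 10, 9 were lower, with a median log2 fold change of -0.14. Alb made up most of each sum. It was the only hepatocyte marker without overlap, beside 5.73% of all tested genes that were lower without overlap. Of 6 tested monocyte and lipid-associated macrophage markers, 5 were lower, with a median log2 fold change of -0.55. For endothelial markers the median was -0.02, with sums of 341 to 422 CPM in Lmln-KO livers, against 377 to 380.4 CPM in WT livers. For markers of stellate cells and fibroblasts the median was -0.28, with sums of 354 to 492 CPM in Lmln-KO livers, against 438 to 519.5 CPM in WT livers. Cholangiocyte markers summed to 8.44 to 18.1 CPM in Lmln-KO livers, against 6.91 to 15.8 CPM in WT livers. Neutrophil markers reached at most 2.02 CPM in Lmln-KO livers, against 2.14 CPM in WT livers, and T and NK cell markers 3.97 CPM in Lmln-KO livers, against 8.0 CPM in WT livers, with 1 gene tested in each of these lists.

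Ddit4, a stress-induced inhibitor of mTORC1, is named after its values were seen. It measured 4.95, 2.27 and 4.35 CPM in Lmln-KO replicates 1, 2 and 3, against 5.05, 5.24 and 13.6 CPM in WT replicates 1, 2 and 3. The groups did not overlap, beside 5.73% of all tested genes that were lower without overlap. The log2 fold change was -1.04 (SE 0.48), and WT replicate 3 held the highest value. Its edgeR adjusted p was 0.933.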
